A study of Homo sapiens with 30 samples.

Results

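The genes of glycolysis and of the hypoxia response were followed on 30 bead arrays during differentiation of the human embryonic stem cell line H9, in a study of placode, the embryonic thickening that gives rise to lens, nose, inner ear and pituitary. The set held 38 genes: 17 glycolytic enzymes, 3 PFKFB regulators, 4 glucose and lactate transporters and 14 other targets of hypoxia-inducible factor (HIF). It was defined by gene name, and 34 of the 38 had an annotated probe and were tested among 13488 genes. PGAM1, SLC16A1, SLC16A3 and CA9 were not analysed here.

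The cultures were sampled at day 1 and day 3 of differentiation and then in PIP and NSB cultures at days 5, 7, 9 and 11, which gave 10 groups of 3 arrays. The labels name no genetic change in the cells and list the arrays within each group as biological replicates, without saying how cultures were separated. The arrays of days 3 and 5 carry paired sample codes, and whether cultures were pooled for them is not stated. PIP and NSB are not spelled out. As background, NSB is known as a neural induction that combines Noggin with an inhibitor of activin/Nodal signalling, and PIP as the placode induction protocol that branches from it. All 3 replicates come from a single cell line, so the spread between arrays says nothing about other lines.

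Glycolysis turns glucose into pyruvate in the cytosol. Glucose enters through carriers such as SLC2A1 and SLC2A3, is trapped by the hexokinases HK1 and HK2 and is split by the phosphofructokinase and aldolase steps, and lactate dehydrogenase turns pyruvate into lactate. When oxygen is scarce, the prolyl hydroxylases of the EGLN family no longer mark the HIF alpha subunits for breakdown, and HIF binds a short core motif near its target genes. Those targets include most glycolytic enzymes as well as genes of blood vessel growth, collagen modification, mitochondrial clearance and growth arrest. Pluripotent stem cells are known for high glycolysis, and many lineages reduce it as they differentiate.

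Values are log2 normalized intensities. A gene was called higher or lower when its adjusted p from limma was below 0.05 (a moderated linear model with Benjamini-Hochberg adjustment over the 13488 genes of each comparison). Differences are log2 differences with their standard error (SE), the later day minus the earlier or PIP minus NSB. Intensities of different probes are not compared with each other.

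On the unnormalised scale array medians lay between 45.4 and 74.7 units, and each array detected 34.0% to 37.7% of its 48701 probes. Arrays of a group correlated at 0.988 to 0.998. Of the members, 33 were detected on all 30 arrays and PDK1 on 16. The marker sums that follow were taken from the normalized intensities, returned to a linear scale, and are not unnormalised signal. The summed signal of 7 pluripotency markers was 11299 to 12312 units in PIP and 11454 to 12079 units in NSB cultures at day 11, against 36472 to 40256 units at day 1. The summed signal of 5 placode and non-neural ectoderm markers at day 11 was 5569 to 6229 units in PIP cultures and 503 to 680.3 units in NSB cultures, while 6 neural markers summed to 14018 to 15142 units in PIP cultures and 21393 to 23792 units in NSB cultures. In these bulk cultures fewer cells of a type and less RNA per cell cannot be told apart, and the part that a changing mix of cells plays in the values below was not tested. Of 6 mesendoderm markers, MIXL1, SOX17 and FOXA2 were not detected on any of the 30 arrays, nor were HBE1 and PTPRC among the endothelial and blood markers. Others of these lists were detected, KDR and TEK on every array. TBXT was detected on all 3 arrays of day 1, day 3 and NSB day 7, and EOMES on all 3 of day 1. Among the 7 fibroblast and mesenchyme markers, COL1A1 and THY1 were detected on every array and POSTN on none. LUM was detected in no group but PIP day 11, and there not on all 3 arrays. Detection of COL3A1, DCN and TWIST1 varied between groups.

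Over the whole course the widest span of group means belonged to ADM, which codes for the vasodilator peptide adrenomedullin, with 4.34 log2 units between day 1 and NSB day 5. SLC2A1, the carrier for basal glucose uptake, spanned 3.68 units between NSB day 9 and PIP day 7. ANKRD37, a small ankyrin repeat protein, DDIT4, an inhibitor of mTOR signalling, and P4HA1, a catalytic subunit of collagen prolyl hydroxylase, spanned 2.59, 2.58 and 2.47 units. Among the enzymes HK2 and HK1 had the widest spans, 2.07 and 2.06 units. GAPDH, the glyceraldehyde phosphate dehydrogenase, and LDHB, a lactate dehydrogenase subunit, spanned only 0.48 and 0.34 units. Of the 16 enzymes, 10 had their highest group mean at day 1 or day 3, while 8 of the 13 other hypoxia targets had theirs at day 9 or day 11 and 3 at day 1. Days 9 and 11 hold groups of both arms and so more groups than days 1 and 3. The like shares over all genes are not given here.

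**Figure D1:**
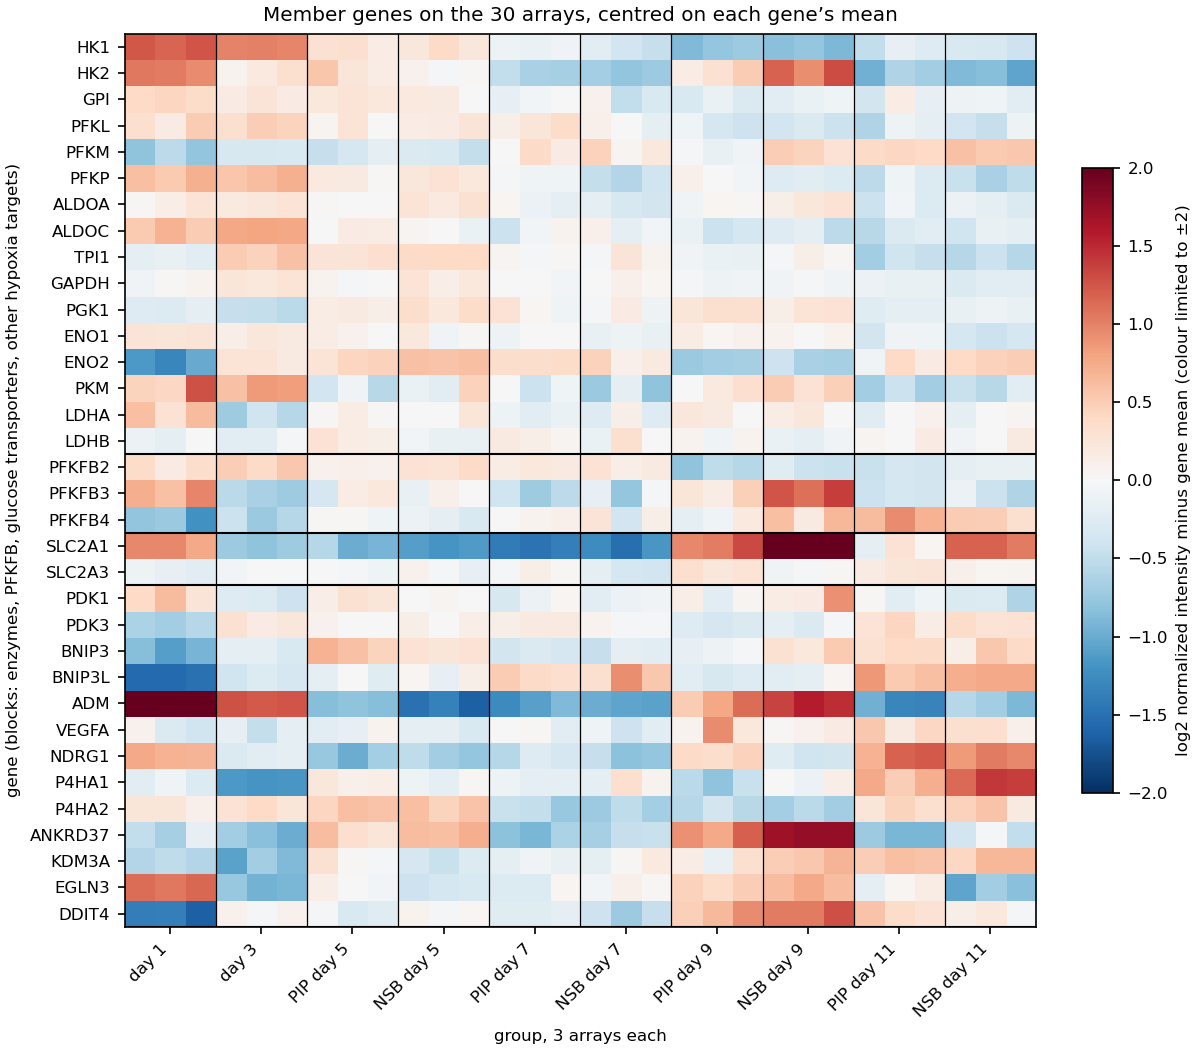
Log2 normalized intensity of each of the 34 tested members (rows) on each of the 30 arrays (columns, 3 per group), minus the gene's mean over all arrays; red is above and blue below that mean, with the colour limited to 2 log2 units. SLC2A1, HK2, PFKFB3, ADM, ANKRD37 and DDIT4 form a red block at day 9 that is deeper in NSB than in PIP, and HK1, ALDOC and PFKP pass from red at day 1 and day 3 to blue at day 11.

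The starts of the members with the widest changes are shown because HIF binds the core ACGTG, or its variant GCGTG, in many of its targets. The windows are RefSeq promoters on GRCh38.p14, from 250 bases before to 50 bases after the annotated start, written 5′ to 3′ on the gene's strand. Capitals mark every match to ACGTG or GCGTG on either strand, with overlapping matches joined. The SLC2A1 window lies at chr1:42958819-42959118 (minus strand), the ADM window at chr11:10304823-10305122 (plus strand), the P4HA1 window at chr10:73096817-73097116 (minus strand) and the ANKRD37 window at chr4:185396591-185396890 (plus strand). The HK2 window, at chr2:74834920-74835219 (plus strand), is the one of its annotated starts with more matches.
SLC2A1: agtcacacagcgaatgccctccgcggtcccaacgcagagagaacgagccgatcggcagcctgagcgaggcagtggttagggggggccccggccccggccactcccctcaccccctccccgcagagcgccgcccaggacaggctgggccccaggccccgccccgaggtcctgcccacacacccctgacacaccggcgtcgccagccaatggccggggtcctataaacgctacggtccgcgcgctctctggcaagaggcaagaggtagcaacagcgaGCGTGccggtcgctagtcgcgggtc
ADM: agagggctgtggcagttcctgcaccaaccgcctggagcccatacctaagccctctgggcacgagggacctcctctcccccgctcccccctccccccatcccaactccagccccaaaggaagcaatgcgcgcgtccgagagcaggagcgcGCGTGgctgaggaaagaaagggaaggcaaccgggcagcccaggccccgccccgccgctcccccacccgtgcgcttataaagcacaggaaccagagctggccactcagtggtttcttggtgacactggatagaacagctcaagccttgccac
P4HA1: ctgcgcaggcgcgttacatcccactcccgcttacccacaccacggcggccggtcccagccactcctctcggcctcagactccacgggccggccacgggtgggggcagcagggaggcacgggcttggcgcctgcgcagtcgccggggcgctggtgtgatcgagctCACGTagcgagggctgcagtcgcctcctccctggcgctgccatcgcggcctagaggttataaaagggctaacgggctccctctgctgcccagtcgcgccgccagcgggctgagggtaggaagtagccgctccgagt
ANKRD37: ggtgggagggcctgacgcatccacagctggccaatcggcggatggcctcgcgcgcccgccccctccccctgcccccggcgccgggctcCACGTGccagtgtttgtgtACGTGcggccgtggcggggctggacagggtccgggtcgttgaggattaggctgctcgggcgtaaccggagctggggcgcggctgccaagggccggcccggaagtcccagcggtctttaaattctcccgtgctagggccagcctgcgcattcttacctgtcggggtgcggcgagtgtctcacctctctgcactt
HK2: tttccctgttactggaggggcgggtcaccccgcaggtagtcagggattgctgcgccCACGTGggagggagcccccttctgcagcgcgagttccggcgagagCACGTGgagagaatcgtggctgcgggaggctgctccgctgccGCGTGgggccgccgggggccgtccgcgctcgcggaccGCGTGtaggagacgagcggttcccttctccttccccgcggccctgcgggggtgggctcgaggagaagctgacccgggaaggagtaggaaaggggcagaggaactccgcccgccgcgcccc
SLC2A1, ADM and P4HA1 hold 1 match each, ANKRD37 holds 3 and this HK2 window holds 6, where a palindrome counts on both strands. For 32 of the 38 members the table held 59 promoters, of which 40 (67.8%) hold either motif, against 48.4% of all 35116 promoters. Windows of one gene can overlap, as for KDM3A and PFKM, so a single site can count more than once. The set is made of glycolysis genes and known hypoxia targets, and the difference in shares was not tested. Among the enzymes 23 of 37 promoters (62.2%) hold one, and among the other hypoxia targets 10 of 13 (76.9%). The window of EGLN3 holds no match to either motif. Sequence outside the windows was not searched, and a link between matches and changes in level was not tested. A match describes the letters of the window and is not a measured binding site.

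At day 3, against day 1, 8 of the 34 members were higher (23.5%) and 13 lower (38.2%), beside 29.0% higher and 25.4% lower over all genes. The largest falls were those of EGLN3, SLC2A1 and ADM and the largest rises those of DDIT4, ENO2 and BNIP3L, so hypoxia targets stood at both ends. EGLN3, the oxygen-sensing prolyl hydroxylase that is itself a HIF target, had 6.95, 6.76 and 6.79 at day 3, against 8.83, 8.76 and 8.85 at day 1. The groups lie far apart, and the log2 difference was −1.98 (SE 0.10, adjusted p = 4.25e-16). SLC2A1 had 7.92, 7.84 and 7.93 at day 3, against 9.61, 9.61 and 9.41 at day 1 (−1.65, SE 0.11, adjusted p = 1.22e-12). Both genes were low on every day 3 array.

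LDHA, the lactate dehydrogenase subunit that favours lactate, had 12.56, 12.87 and 12.70 at day 3, against 13.86, 13.56 and 13.90 at day 1. This was the widest step of LDHA in the course, a log2 difference of −1.06 (SE 0.11, adjusted p = 7.17e-09), and the groups do not overlap. ADM (−1.59, SE 0.12), PFKFB3 (−1.40, SE 0.16), P4HA1 (−0.97, SE 0.11) and NDRG1, a stress-induced gene of differentiation (−0.94, SE 0.12), were also called lower.

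ENO2, the neuronal enolase, had 10.93, 10.93 and 10.83 at day 3, against 9.50, 9.35 and 9.64 at day 1 (1.40, SE 0.10, adjusted p = 1.99e-12). DDIT4 had 11.71, 11.59 and 11.71 at day 3, against 10.24, 10.25 and 9.99 at day 1 (1.51, SE 0.11, adjusted p = 3.09e-12). Every day 3 array of both genes lies above every day 1 array. The mitophagy receptors BNIP3L (SE 0.11, adjusted p = 5.08e-10) and BNIP3 (0.73, SE 0.10), PDK3, a kinase that closes pyruvate dehydrogenase (0.86, SE 0.08), and TPI1, triosephosphate isomerase (0.71, SE 0.08), were called higher.

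The enzymes split evenly at this step, 4 higher and 4 lower of 16 with a median of 0.03, and of the 13 other hypoxia targets 4 were higher and 7 lower with a median of −0.32. The median of all genes was 0.01. With each array scaled to its median over all probes, the median of all genes moved to 0.20, the member split to 14 higher and 9 lower and the target median to 0.02.

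At day 5 the arms had parted, and both are set against the same day 3 arrays, so these comparisons share arrays. In PIP cultures at day 5, against day 3, 11 members were higher (32.4%, beside 21.4% of all genes) and 12 lower (35.3%, beside 23.0%). In NSB cultures at day 5, against day 3, 11 were higher (32.4%, beside 18.5%) and 7 lower (20.6%, beside 18.3%).

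ADM had 9.12, 9.16 and 9.11 in PIP cultures at day 5, against 11.24, 11.20 and 11.23 at day 3 (−2.09, SE 0.12, adjusted p = 4.44e-14). In NSB cultures at day 5 ADM had 8.47, 8.61 and 8.33, against the same day 3 values (−2.75, SE 0.12, adjusted p = 1.46e-16). ADM was thus low on all 6 day 5 arrays, and lower on each NSB array than on each PIP array.

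ANKRD37 and P4HA1 went the other way. ANKRD37 had 7.54, 7.27 and 7.17 in PIP cultures and 7.55, 7.53 and 7.66 in NSB cultures at day 5, against 6.24, 6.10 and 5.93 at day 3. The log2 differences were 1.24 in PIP and 1.49 in NSB (SE 0.13 each, adjusted p = 8.92e-09 and 3.07e-10). P4HA1 had 9.86, 9.73 and 9.77 in PIP cultures and 9.53, 9.46 and 9.66 in NSB cultures at day 5, against 8.48, 8.45 and 8.47 at day 3, with log2 differences of 1.32 in PIP and 1.08 in NSB (SE 0.11 each). A much dimmer second probe of P4HA1 gave an uncalled 0.16 in PIP and 0.39, called higher, in NSB (SE 0.14 each). No day 5 array of either gene reaches down to day 3.

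PGK1, the phosphoglycerate kinase that yields the first ATP of the pathway, had 11.89, 11.93 and 11.87 in PIP cultures and 12.10, 11.96 and 12.12 in NSB cultures at day 5, against 11.29, 11.27 and 11.20 at day 3. The log2 differences were 0.64 in PIP and 0.81 in NSB (SE 0.08 each), and every day 5 array is above day 3. LDHA was called higher too, by 0.62 in PIP and 0.64 in NSB (SE 0.11 each).

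Other enzymes fell at day 5. PKM, the muscle-type pyruvate kinase, had 7.76, 8.07 and 7.59 in PIP cultures and 8.01, 7.92 and 8.60 in NSB cultures, against 8.73, 8.99 and 8.98 at day 3 (−1.10 in PIP and −0.72 in NSB, SE 0.19 each). ALDOC, the brain aldolase, had 9.46, 9.63 and 9.62 in PIP cultures and 9.53, 9.46 and 9.34 in NSB cultures, against 10.25, 10.26 and 10.24 at day 3 (−0.68 in PIP and −0.80 in NSB, SE 0.12 each). HK1, the hexokinase of most tissues, fell by 0.74 in PIP and by 0.72 in NSB (SE 0.08 each), and PFKP, the platelet-type phosphofructokinase, by 0.50 and by 0.38 (SE 0.09 each).

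Of the 16 enzymes, 3 were higher and 8 lower in PIP (median −0.16), and 3 higher and 4 lower in NSB (median −0.10). Of the 13 other hypoxia targets, 6 were higher and 3 lower in PIP (median 0.23), and 6 higher and 2 lower in NSB (median 0.33). The median of all genes was 0.00 in both. Besides ANKRD37 and P4HA1, the targets higher in both arms were BNIP3, KDM3A, a histone demethylase, and EGLN3, by 0.80, 0.98 and 0.90 in PIP and by 0.50, 0.53 and 0.52 in NSB. Under median scaling over all probes the PIP split was 9 higher and 13 lower, with the median of all genes at −0.14.

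In PIP cultures at day 7, against PIP day 5, 3 members were higher (8.82%, beside 16.6% of all genes) and 10 lower (29.4%, beside 16.9%). In NSB cultures at day 7, against NSB day 5, 5 were higher (14.7%, beside 20.1%) and 16 lower (47.1%, beside 22.6%). ANKRD37 had 6.11, 6.01 and 6.29 in PIP cultures at day 7, against 7.54, 7.27 and 7.17 at PIP day 5 (−1.19, SE 0.13, adjusted p = 3.13e-08). In NSB cultures ANKRD37 had 6.26, 6.46 and 6.49 at day 7, against 7.55, 7.53 and 7.66 at NSB day 5 (−1.18, SE 0.13, adjusted p = 2.82e-08). Both arms were back near the day 3 level of this gene.

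P4HA2, a sister subunit of the same enzyme family, had 7.11, 7.08 and 6.80 in PIP cultures at day 7, against 7.99, 8.15 and 8.13 at PIP day 5 (−1.09, SE 0.10), and averaged 6.91 ± 0.11 in NSB cultures at day 7, against 8.09 ± 0.08 at NSB day 5 (SD, n = 3 each; −1.18, SE 0.10). P4HA1 did not share the size of this fall, with −0.31 (SE 0.11, adjusted p = 0.0275) in PIP and an uncalled 0.15 in NSB. HK2, the hexokinase of muscle and tumours, had 7.92, 7.77 and 7.75 in PIP cultures at day 7, against 8.97, 8.65 and 8.56 at PIP day 5 (−0.92, SE 0.11). NSB cultures had 7.73, 7.63 and 7.69 for HK2 at day 7, against 8.50, 8.39 and 8.44 at NSB day 5 (−0.76, SE 0.11). Neither gene overlaps between the days in either arm.

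BNIP3L and PFKM, the muscle-type phosphofructokinase, were the members called higher in both arms. BNIP3L had 10.48, 10.36 and 10.32 in PIP cultures at day 7, against 9.78, 9.97 and 9.74 at PIP day 5 (0.56, SE 0.11), and 10.30, 10.90 and 10.51 in NSB cultures at day 7, against 10.01, 9.82 and 10.09 at NSB day 5 (0.60, SE 0.11). PFKM had 9.63, 10.01 and 9.80 in PIP cultures at day 7, against 9.17, 9.30 and 9.43 at PIP day 5 (0.51, SE 0.10), and 10.10, 9.69 and 9.85 in NSB cultures at day 7, against 9.34, 9.32 and 9.16 at NSB day 5 (0.61, SE 0.10). The later arrays lie above the earlier ones for both genes.

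In PIP 4 of the 16 enzymes were lower and 1 was higher (median −0.11). In NSB 11 were lower and 1 was higher (median −0.30), with −0.73 for PFKP (SE 0.09), −0.63 for HK1 (SE 0.08) and −0.55 for ALDOA, the main aldolase (SE 0.09). The other targets stood at 2 higher and 4 lower in PIP (median −0.24) and 4 higher and 4 lower in NSB (median −0.02). The median of all genes was −0.01 in PIP and 0.00 in NSB. In NSB, median scaling over all probes gave 1 higher and 18 lower with the median of all genes at −0.16, and over detected probes 6 higher and 12 lower with it at 0.09. The NSB falls of GAPDH (−0.16) and ENO1, the main enolase (−0.20), turned under the second of these scalings to 0.11 and 0.02. In PIP the first scaling gave 3 higher and 6 lower.

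The step to day 9 held the largest change of any member, that of SLC2A1 in NSB. In PIP cultures at day 9, against PIP day 7, 13 members were higher (38.2%, beside 22.5% of all genes) and 8 lower (23.5%, beside 23.9%). In NSB cultures at day 9, against NSB day 7, 18 were higher (52.9%, beside 23.0%) and 6 lower (17.6%, beside 24.7%). The arms share no arrays here. Both called 11 of the 34 members higher (32.4%, beside 15.7% of all genes) and 6 lower (17.6%, beside 17.8%). The 11 are 84.6% of the members called higher in PIP and 61.1% of those in NSB, and the like shares over all genes are 69.8% and 68.1%. None was called in opposite directions, beside 0.645%.

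SLC2A1 had 9.61, 9.67 and 9.97 in PIP cultures at day 9, against 7.24, 7.17 and 7.28 at PIP day 7 (2.52, SE 0.11, adjusted p = 4.18e-16). In NSB cultures SLC2A1 had 10.84, 10.87 and 11.03 at day 9, against 7.39, 7.14 and 7.48 at NSB day 7 (3.58, SE 0.11, adjusted p = 2.54e-19). The day 7 arrays of the arms lie together, and at day 9 every NSB array is above every PIP array. SLC2A3, the neuronal-type glucose carrier, was high on all arrays and rose less, by 0.24 in PIP and 0.30 in NSB (SE 0.07 each). Its transcript is nearly identical to that of SLC2A14, and whether the probe reads both was not tested.

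ADM had 10.48, 10.74 and 11.09 in PIP cultures at day 9, against 8.69, 8.89 and 9.08 at PIP day 7 (1.88, SE 0.12, adjusted p = 5.47e-13). For ADM in NSB cultures the arrays gave 11.32, 11.54 and 11.45 at day 9, against 8.98, 8.92 and 8.90 at NSB day 7 (2.50, SE 0.12, adjusted p = 1.63e-15). ADM at day 9 was thus back near its day 3 level in NSB and still under the 12.78 to 12.87 of day 1 in both arms.

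ANKRD37 had 7.84, 7.68 and 8.13 in PIP cultures at day 9, against 6.11, 6.01 and 6.29 at PIP day 7 (1.75, SE 0.13, adjusted p = 1.20e-11). On the NSB arrays ANKRD37 read 8.63, 8.69 and 8.68 at day 9, against 6.26, 6.46 and 6.49 at NSB day 7 (2.27, SE 0.13, adjusted p = 6.04e-14). The NSB day 9 arrays were its highest of the course.

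HK2 had 8.56, 8.72 and 8.92 in PIP cultures at day 9, against 7.92, 7.77 and 7.75 at PIP day 7 (0.92, SE 0.11, adjusted p = 1.03e-07). NSB cultures had 9.59, 9.34 and 9.71 for HK2 at day 9, against 7.73, 7.63 and 7.69 at NSB day 7 (1.87, SE 0.11, adjusted p = 1.22e-13). HK2 was the only enzyme whose rise passed 0.5 log2 units in PIP, while in NSB PKM and ALDOA did so too.

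PFKFB3, which makes the strongest activator of phosphofructokinase, had 6.75, 6.65 and 6.98 in PIP cultures at day 9, against 6.10, 5.79 and 5.98 at PIP day 7 (0.84, SE 0.16, adjusted p = 7.38e-05). Its NSB arrays gave 7.76, 7.60 and 7.88 at day 9, against 6.34, 5.73 and 6.48 at NSB day 7 (1.56, SE 0.16, adjusted p = 3.49e-09). DDIT4 had 12.09, 12.26 and 12.57 in PIP cultures at day 9, against 11.38, 11.38 and 11.44 at PIP day 7 (0.91, SE 0.11), and 12.66, 12.66 and 12.90 in NSB cultures at day 9, against 11.20, 10.89 and 11.16 at NSB day 7 (1.66, SE 0.11). All day 9 arrays of both genes are above all day 7 arrays of their arm. EGLN3 was called higher by 0.61 in PIP and 0.63 in NSB (SE 0.10 each).

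**Figure D2:**
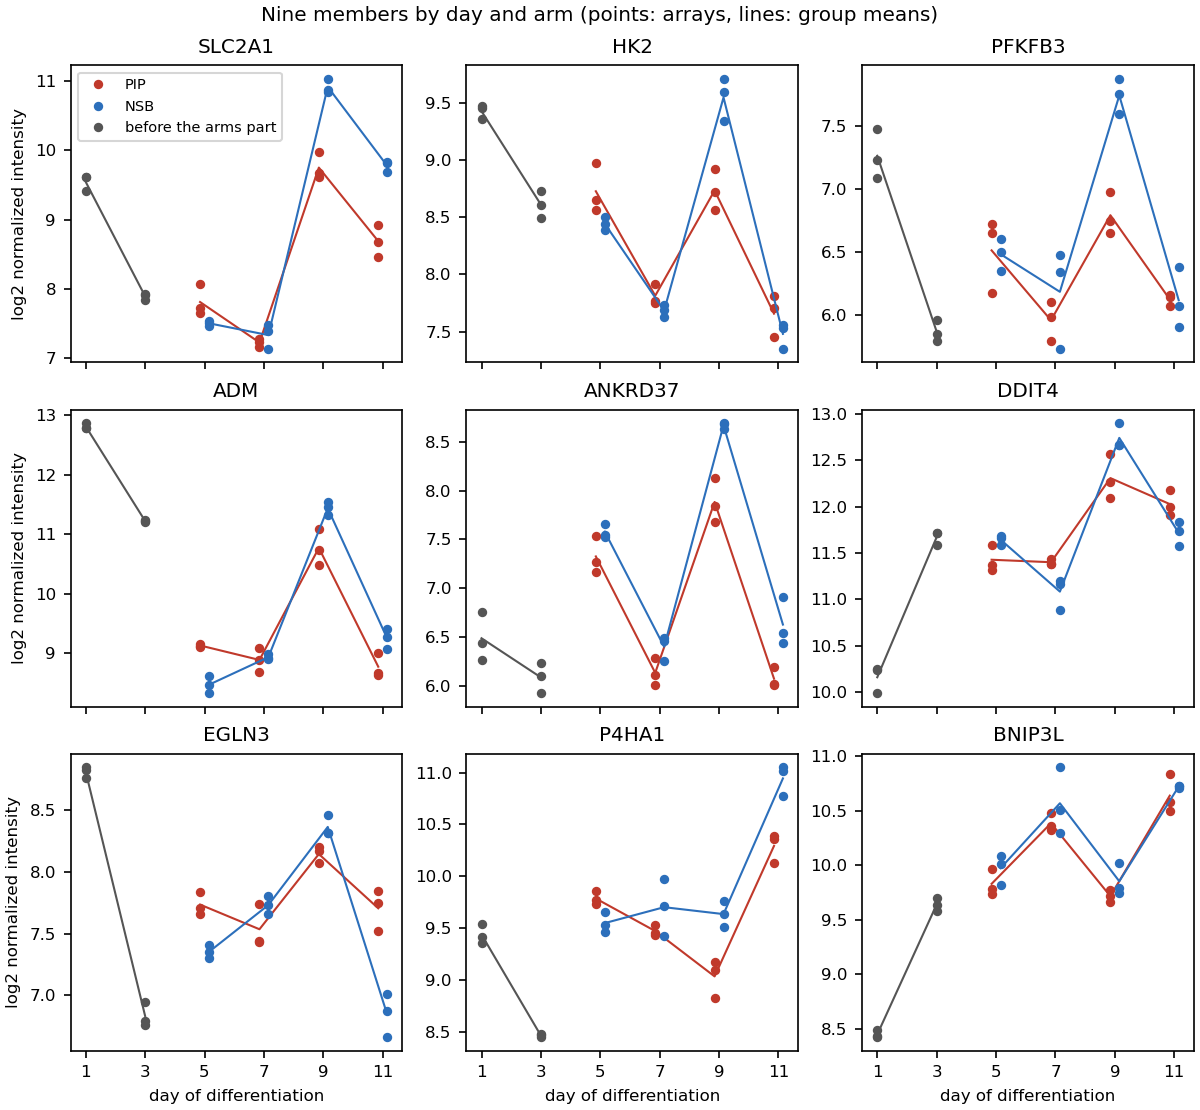
Log2 normalized intensity (vertical axis) by day of differentiation (horizontal axis) for 9 members; points are arrays, lines join group means, PIP is red, NSB blue and the days before the arms part grey. SLC2A1, PFKFB3, ADM, ANKRD37 and DDIT4 have their highest arm means at day 9, higher in NSB, and so does HK2 in NSB, while in PIP HK2 averaged 8.73 at both day 5 and day 9; P4HA1 and BNIP3L are at their highest arm means at day 11.

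Several members fell at the same step. ENO2 had 9.91, 9.96 and 9.98 in PIP cultures at day 9, against 11.00, 11.01 and 11.02 at PIP day 7 (−1.06, SE 0.10, adjusted p = 1.15e-09), and averaged 10.07 ± 0.14 in NSB cultures at day 9, against 10.90 ± 0.19 at NSB day 7 (SD, n = 3 each; −0.83, SE 0.10, adjusted p = 8.71e-08). PFKFB2, the heart-type sister of PFKFB3, had 6.26, 6.55 and 6.50 in PIP cultures at day 9, against 7.21, 7.27 and 7.25 at PIP day 7 (−0.81, SE 0.08), and fell by 0.57 in NSB (SE 0.08). BNIP3L had 9.77, 9.66 and 9.72 in PIP cultures at day 9, against 10.48, 10.36 and 10.32 at PIP day 7 (−0.67, SE 0.11), and 9.75, 9.79 and 10.02 in NSB cultures at day 9, against 10.30, 10.90 and 10.51 at NSB day 7 (−0.72, SE 0.11). The day 9 arrays of these 3 genes lie below those of day 7. HK1 fell by 0.70 in PIP and by 0.48 in NSB (SE 0.08 each), opposite to HK2.

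Of the core enzymes, LDHA, PGK1, ENO1 and GAPDH moved little by comparison, while PKM rose in NSB. LDHA had 13.49, 13.44 and 13.26 in PIP cultures at day 9, against 13.16, 13.05 and 13.13 at PIP day 7 (0.28, SE 0.11, adjusted p = 0.0446, a call lost under 9 of 15 alternatives), and in NSB its difference was not called. PGK1 rose by 0.22 in PIP and 0.21 in NSB (SE 0.08 each; lost under 6 and 7 of 15 alternatives). ENO1 had 13.97, 13.91 and 13.97 in NSB cultures at day 9, against 13.74, 13.79 and 13.74 at NSB day 7 (0.19, SE 0.08, adjusted p = 0.0430, lost under 9 of 15). GAPDH averaged 13.93 ± 0.03 in PIP cultures at day 9, against 13.97 ± 0.03 at PIP day 7 (SD, n = 3 each), with no call in either arm. PKM had 8.65, 8.43 and 8.61 in NSB cultures at day 9, against 7.39, 7.95 and 7.33 at NSB day 7 (1.01, SE 0.19, adjusted p = 9.43e-05), and its other probe gave 0.98.

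VEGFA, the vessel growth factor, and PDK1, the kinase that diverts pyruvate from mitochondria, were dim. VEGFA had 5.82, 6.70 and 5.96 in PIP cultures at day 9, against 5.76, 5.78 and 5.53 at PIP day 7 (0.47, SE 0.16, adjusted p = 0.0146). Replicate 2 stands above the other day 9 arrays, and the call was lost under 4 of 15 alternatives, among them its removal. PDK1 had 5.39, 5.40 and 6.16 in NSB cultures at day 9, against 5.01, 5.13 and 5.17 at NSB day 7 (0.54, SE 0.15, adjusted p = 0.00273), with replicate 3 above the others, and without that array the call was lost. Its probe was detected on 0 of 3 arrays at NSB day 7, so this difference is taken from background signal.

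At day 9, 3 of the 16 enzymes were higher and 4 lower in PIP (median −0.07), and 6 were higher and 3 lower in NSB (median 0.12). Of the 13 other hypoxia targets, 7 were higher and 3 lower in PIP (median 0.25), and 8 higher and 2 lower in NSB (median 0.54). The median of all genes was 0.00 in PIP and −0.01 in NSB. Under median scaling over all probes the split was 8 higher and 8 lower in PIP and 17 higher and 4 lower in NSB, with the median of all genes at −0.07 in PIP and 0.08 in NSB. The enzyme medians were then −0.20 in PIP and 0.23 in NSB, and the target medians 0.15 in PIP and 0.61 in NSB.

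In PIP cultures at day 11, against PIP day 9, 12 members were higher (35.3%, beside 23.9% of all genes) and 13 lower (38.2%, beside 23.7%). In NSB cultures at day 11, against NSB day 9, 8 were higher (23.5%, beside 24.6%) and 15 lower (44.1%, beside 26.6%). These comparisons share the day 9 arrays with the step before. ADM had 9.01, 8.67 and 8.64 in PIP cultures at day 11, against 10.48, 10.74 and 11.09 at PIP day 9 (means of 8.77 and 10.77, SE of the difference 0.12, adjusted p = 2.37e-13). In NSB cultures ADM had 9.40, 9.28 and 9.07 at day 11, against 11.32, 11.54 and 11.45 at NSB day 9 (−2.19, SE 0.12, adjusted p = 2.62e-14). The day 11 values are near those of day 7.

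HK2 had 7.45, 7.81 and 7.71 in PIP cultures at day 11, against 8.56, 8.72 and 8.92 at PIP day 9 (−1.07, SE 0.11), and 7.53, 7.56 and 7.35 in NSB cultures at day 11, against 9.59, 9.34 and 9.71 at NSB day 9 (−2.07, SE 0.11). ANKRD37 had 6.20, 6.01 and 6.02 in PIP cultures at day 11, against 7.84, 7.68 and 8.13 at PIP day 9 (−1.81, SE 0.13), and fell by 2.04 in NSB (SE 0.13). SLC2A1 had 8.46, 8.93 and 8.68 in PIP cultures at day 11, against 9.61, 9.67 and 9.97 at PIP day 9 (−1.06, SE 0.11), and 9.83, 9.82 and 9.68 in NSB cultures at day 11, against 10.84, 10.87 and 11.03 at NSB day 9 (−1.13, SE 0.11). HK2 and ANKRD37 returned to about their day 7 values, while SLC2A1 stayed above its day 7 arrays in both arms.

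P4HA1 had 10.39, 10.13 and 10.36 in PIP cultures at day 11, against 9.10, 8.83 and 9.18 at PIP day 9 (1.26, SE 0.11, adjusted p = 2.81e-10), and 10.77, 11.05 and 11.01 in NSB cultures at day 11, against 9.64, 9.51 and 9.76 at NSB day 9 (1.31, SE 0.11, adjusted p = 9.24e-11). Its dimmer probe did not follow, with an uncalled 0.25 in PIP and −0.66 in NSB (SE 0.14, called lower). NDRG1 had 7.20, 7.39 and 7.31 in NSB cultures at day 11, against 6.10, 5.94 and 5.98 at NSB day 9 (1.29, SE 0.12, adjusted p = 3.60e-10), and rose by 0.63 in PIP (SE 0.12). BNIP3L had 10.84, 10.50 and 10.58 in PIP cultures at day 11, against 9.77, 9.66 and 9.72 at PIP day 9 (0.92, SE 0.11), and 10.71, 10.73 and 10.73 in NSB cultures at day 11, against 9.75, 9.79 and 10.02 at NSB day 9 (0.87, SE 0.11). ENO2 rose again by 0.86 in PIP and 1.04 in NSB (SE 0.10 each), and P4HA2 by 0.83 and 1.04 (SE 0.10 each).

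Higher at day 9 than at both day 7 and day 11, by calls in each, were 8 members in PIP (beside 13.5% of all genes): HK2, PGK1, PFKFB3, SLC2A1, ADM, ANKRD37, EGLN3 and DDIT4. In NSB there were 13 (beside 14.8%), the same 8 with PFKP, ALDOA, ENO1, PKM and PDK1. The PDK1 probe was detected on 0 of 3 arrays at NSB day 7 and at NSB day 11. Lower at day 9 than on both neighbouring days were 7 members in PIP (beside 13.6%), HK1, PFKM, ENO2, PFKFB2, PDK3, BNIP3L and P4HA1. In NSB there were 5 (beside 14.3%), HK1, ENO2, PFKFB2, PDK3 and BNIP3L. Several of these calls depended on the processing. At the step to day 9, of 15 alternatives, 6 lost the PIP calls of PGK1 and PFKM, 9 lost the NSB calls of PDK3 and ENO1, 7 that of PGK1 and 5 that of PFKP. At the step to day 11, the PIP calls of DDIT4 and PFKFB2 were lost under 6 and 4 and the NSB call of PFKFB2 under 7, and the other calls behind these lists were lost under at most 2.

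From day 9 to day 11, 7 of the 16 enzymes were lower and 3 higher in PIP (median −0.13), and 8 lower and 2 higher in NSB (median −0.17). Of the other targets 7 were higher and 4 lower in PIP (median 0.44), and 5 higher and 5 lower in NSB (median 0.01). The medians of all genes were −0.01 and −0.02. In NSB, median scaling over all probes gave 4 members higher and 24 lower with the median of all genes at −0.33, and scaling over detected probes 10 higher and 14 lower with it at 0.17. The NSB rises of HK1 (0.50), PFKFB2 (0.21) and PDK3 (0.48) turned to −0.10, −0.13 and −0.11 under the first. In PIP that scaling left 10 higher and 9 lower.

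**Figure D3:**
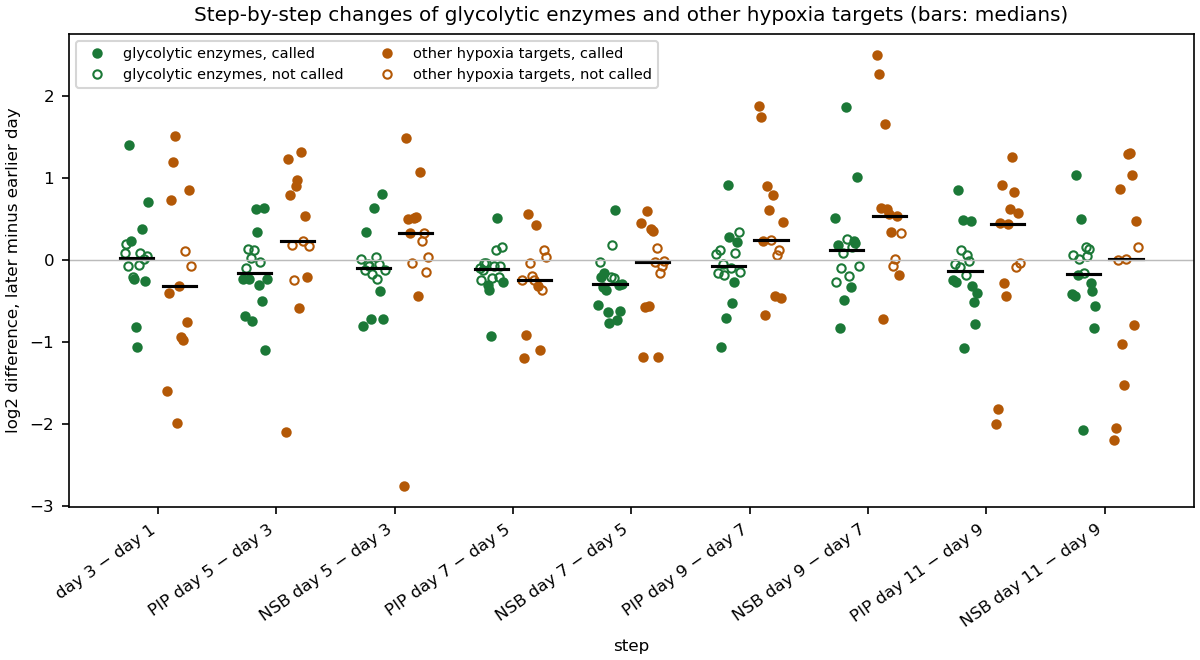
Log2 difference of each glycolytic enzyme (green) and each other hypoxia target (orange) at 9 steps, the later day minus the earlier; filled points were called, open points were not, and black bars are list medians. The enzymes spread from −2.07 to 1.87 and the targets from −2.75 to 2.50. The target medians lie above those of the enzymes at day 5, day 9 and day 11 in both arms.

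Against day 3, which both arms share as the earlier group, the enzymes and the other targets had separated by day 11. In PIP cultures at day 11, 15 members were higher (44.1%, beside 30.4% of all genes) and 13 lower (38.2%, beside 32%). In NSB cultures at day 11, 12 were higher (35.3%, beside 31.3%) and 13 lower (38.2%, beside 34.7%). Of the 16 enzymes, 11 were lower in each arm, with medians of −0.43 in PIP and −0.52 in NSB, while 8 of the 13 other targets were higher in PIP and 7 in NSB, with medians of 0.59 and 0.52. The median of all genes was −0.01 in both arms. For 21 further hypoxia targets outside the set the medians were 0.10 in PIP and −0.05 in NSB. Of these, 9 were higher and 7 lower in PIP, and 8 higher and 7 lower in NSB. Genes of gluconeogenesis and glycogen (11) had medians of −0.34 and −0.56, and those of the pentose phosphate pathway (7) −0.28 and −0.25. Among 12 other isozymes and carriers of glycolysis the medians were −0.03 and −0.09.

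P4HA1 stood highest above day 3, by 1.82 in PIP and 2.47 in NSB (SE 0.11 each), and its dimmer probe gave 0.62 and 0.66. KDM3A had 8.30, 8.41 and 8.37 in PIP cultures and 8.22, 8.47 and 8.47 in NSB cultures at day 11, against 6.74, 7.11 and 6.92 at day 3 (1.43 in PIP and 1.46 in NSB, SE 0.11 each). SLC2A1 was higher by 0.79 in PIP and 1.88 in NSB (SE 0.11 each). PFKFB4, the testis-type regulator, was higher by 1.34 and 1.02 (SE 0.14 each). All day 11 arrays of KDM3A lie above day 3.

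ADM was the only other target called lower than day 3 in both arms, by −2.45 in PIP and −1.98 in NSB (SE 0.12 each). HK1 had 11.44, 11.76 and 11.68 in PIP cultures and 11.63, 11.61 and 11.52 in NSB cultures at day 11, against 12.93, 12.94 and 12.90 at day 3 (−1.30 in PIP and −1.34 in NSB, SE 0.08 each). TPI1 was lower by −1.04 in each arm (SE 0.08), PKM by −1.36 in PIP and −1.17 in NSB (SE 0.19 each) and ALDOC by −1.13 and −1.03 (SE 0.12 each). GAPDH had 13.88, 13.84 and 13.85 in PIP cultures and 13.71, 13.79 and 13.77 in NSB cultures at day 11, against 14.23, 14.21 and 14.27 at day 3 (−0.38 and −0.48, SE 0.06 each). The arrays of HK1 and of GAPDH do not overlap between the days.

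PFKM, LDHA and PGK1 were the enzymes called higher than day 3 in both arms. PFKM was higher by 0.72 in PIP and 0.86 in NSB (SE 0.10 each), LDHA by 0.51 and 0.52 (SE 0.11 each) and PGK1 by 0.28 and 0.35 (SE 0.08 each). Day 3 was the lowest group of the course for LDHA and PGK1. LDHA averaged 13.22 in PIP and 13.23 in NSB at day 11, against 13.77 at day 1. PGK1 averaged 11.53 and 11.61 at day 11, against 11.50 at day 1. Day 11 was not tested against day 1. Under median scaling over all probes the median of all genes moved to −0.16 in PIP and −0.43 in NSB, the split to 9 higher and 15 lower and to 5 higher and 21 lower, and PGK1 to −0.10 and −0.38. LDHA in NSB then stood at −0.06. The enzyme medians were −0.76 and −1.10 and the target medians 0.23 and −0.06, so the targets stayed above and the enzymes below the median of all genes. Scaling over detected probes gave 15 higher and 12 lower in NSB with the median of all genes at 0.20. PDK3 has probes that disagree here, with an uncalled 0.06 in PIP and 0.08 in NSB on the brighter and −1.36 and −1.38 on the other.

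The mean centred level of each list summarises the course. The enzymes averaged 0.21 at day 1 and 0.24 at day 3, 0.10 in PIP and 0.14 in NSB at day 5, −0.03 and −0.15 at day 7, −0.10 and 0.00 at day 9, and −0.21 in both arms at day 11. The other hypoxia targets averaged −0.05 at day 1 and −0.25 at day 3, 0.00 in PIP and −0.12 in NSB at day 5, −0.27 and −0.26 at day 7, 0.16 and 0.40 at day 9, and 0.20 and 0.21 at day 11. The enzymes minus the targets stood at 0.26 at day 1, 0.50 at day 3, 0.11 in PIP and 0.27 in NSB at day 5, 0.24 and 0.11 at day 7, −0.25 and −0.40 at day 9 and −0.41 and −0.42 at day 11. Each gene was centred on its own mean over all arrays, so this difference averages 0 over the arrays by construction. Values above and below 0 therefore had to occur, and 0 does not mark equal levels of the lists. The lowest value on any array through day 7 was 0.04, and the highest on any array of days 9 and 11 was −0.19. The difference was thus lower on every array of days 9 and 11 than on every array through day 7. Over 15 comparisons of groups the enzymes' median was below that of the targets in 10. These comparisons share groups and arrays, and those of day 11 with day 3 span the steps between. Between the arms the sign rests on writing PIP minus NSB. The count therefore does not stand for 15 separate observations.

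**Figure D4:**
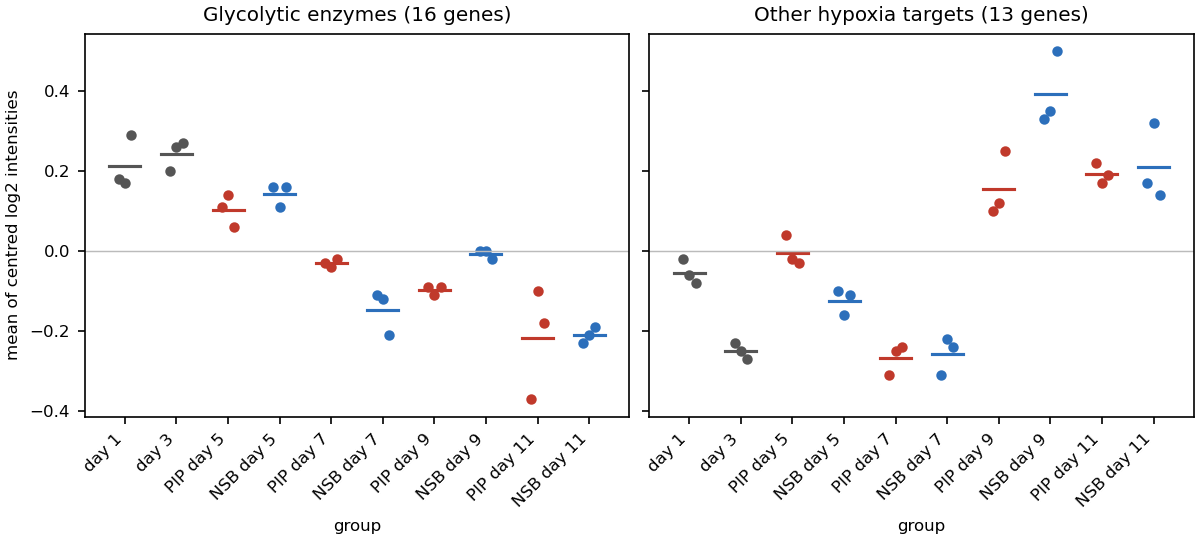
Mean over each list of the log2 intensities centred on each gene's mean (vertical axis) for the 16 glycolytic enzymes (left) and the 13 other hypoxia targets (right) in the 10 groups; points are arrays and bars are group means, with PIP in red, NSB in blue and the earlier days in grey. The enzymes end at −0.21 at day 11 in both arms, with NSB higher at day 9 (0.00) than at day 7 (−0.15), and the targets rise to 0.16 in PIP and 0.40 in NSB at day 9.

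Between the arms, at day 5, 5 members were higher in PIP than in NSB (14.7%, beside 5.93% of all genes) and 1 lower (2.94%, beside 5.59%). ADM had 9.12, 9.16 and 9.11 in PIP, against 8.47, 8.61 and 8.33 in NSB (0.66, SE 0.12, adjusted p = 4.94e-04). KDM3A (0.45, SE 0.11), EGLN3 (0.38, SE 0.10), BNIP3 (0.30, SE 0.10) and LDHB (0.30, SE 0.09) were higher in PIP and GAPDH lower (−0.19, SE 0.06). The count of 6 fell to between 1 and 3 without any single NSB array or without PIP replicate 1 or 2, and under median scaling over all probes none of these 6 kept its call and 2 other members were called lower.

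At day 7, 3 members were higher in PIP (8.82%, beside 6.51%) and none lower (beside 5.93%): PFKP (0.41, SE 0.09, adjusted p = 0.00169), SLC2A3 (0.35, SE 0.07, adjusted p = 8.49e-04) and HK1 (0.26, SE 0.08, adjusted p = 0.0346). The HK1 call was lost under 9 of 15 alternatives, among them both median scalings and the mean of its probes. None of the 13 other hypoxia targets was called by limma at this day, and 3 of them had an unadjusted p under 0.05. PFKP had 10.82, 10.77 and 10.78 in PIP, against 10.39, 10.27 and 10.47 in NSB, with no overlap. The count was 8 without NSB replicate 1 and 1 under median scaling over detected probes.

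By the number of members called in the fit reported, the arms differed most at day 9, with 3 members higher in PIP (8.82%, beside 10.3%) and 13 lower (38.2%, beside 10.5%). This ranking of days depended on the scaling. Median scaling over all probes called more members at day 11 (14 higher and 1 lower) than at day 9 (1 higher and 11 lower). Over all genes, larger shares were called at day 11, 14.2% higher and 11.4% lower. SLC2A1 had 9.61, 9.67 and 9.97 in PIP, against 10.84, 10.87 and 11.03 in NSB (−1.16, SE 0.11, adjusted p = 5.78e-09). PFKFB3 had 6.75, 6.65 and 6.98 in PIP, against 7.76, 7.60 and 7.88 in NSB (−0.96, SE 0.16, adjusted p = 3.55e-05). HK2 had 8.56, 8.72 and 8.92 in PIP, against 9.59, 9.34 and 9.71 in NSB (−0.81, SE 0.11, adjusted p = 1.99e-06). Each of these genes is lower on all PIP arrays than on all NSB arrays.

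ANKRD37 (−0.78, SE 0.13), ADM (−0.67, SE 0.12), P4HA1 (−0.60, SE 0.11), KDM3A (−0.46, SE 0.11), BNIP3 (−0.44, SE 0.10), DDIT4 (−0.43, SE 0.11) and the dim PDK1 (−0.42, SE 0.15) were the 7 other targets lower in PIP, though the PDK1 call was lost under 7 of 15 alternatives, among them leaving out NSB replicate 3. NDRG1 went against them, with 6.73, 6.70 and 6.80 in PIP, against 6.10, 5.94 and 5.98 in NSB (0.74, SE 0.12, adjusted p = 1.77e-05). Among the enzymes HK2 and PFKM (−0.49, SE 0.10) were lower and PFKP higher (0.27, SE 0.09), with a median of 0.00 over the 16, beside −0.42 over the targets and −0.01 over all genes. Under median scaling over all probes 1 member was higher and 11 were lower.

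At day 11, 3 members were higher in PIP (8.82%, beside 14.2%) and 6 lower (17.6%, beside 11.4%). SLC2A1 had 8.46, 8.93 and 8.68 in PIP, against 9.83, 9.82 and 9.68 in NSB (−1.09, SE 0.11, adjusted p = 1.54e-08). P4HA1 (−0.65, SE 0.11), ANKRD37 (−0.55, SE 0.13) and ADM (−0.47, SE 0.12) were lower as well, and the dimmer P4HA1 probe gave an uncalled −0.04. EGLN3 had 7.52, 7.75 and 7.85 in PIP, against 6.66, 7.01 and 6.87 in NSB (0.86, SE 0.10, adjusted p = 4.74e-08), and was the member furthest above NSB. On all arrays of day 11 SLC2A1 was lower and EGLN3 higher in PIP.

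The enzymes had 1 higher and 1 lower at day 11 and a median of 0.00, and the targets 2 higher and 3 lower and −0.03, beside 0.00 over all genes. Scaling each array to its median over all probes gave 14 members higher and 1 lower, with the median of all genes at 0.28. ENO2 (−0.29) and PFKFB2 (−0.22) turned to 0.09 and 0.11 under it. Without NSB replicate 3 the count of 9 fell to 5.

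**Figure D5:**
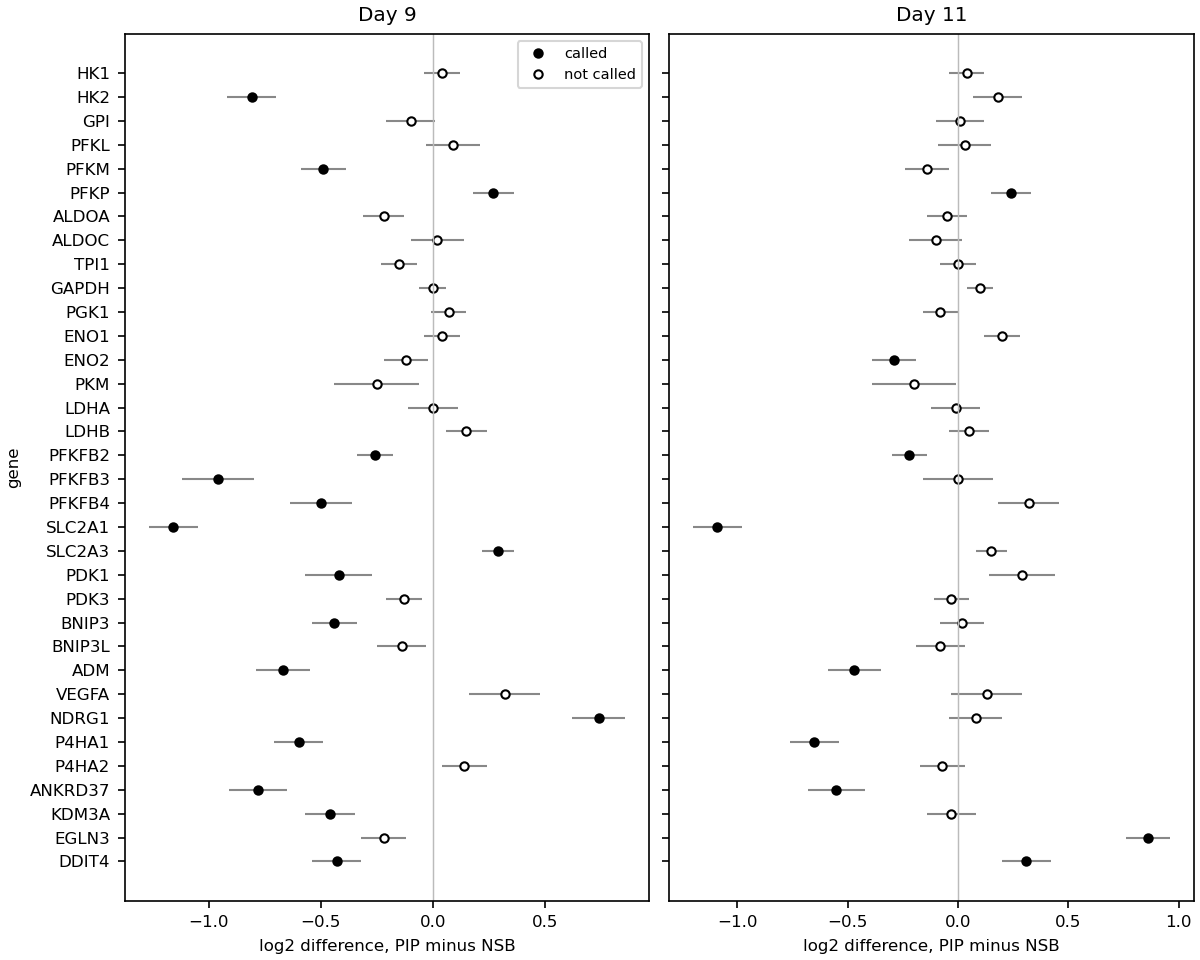
Log2 difference of PIP minus NSB (horizontal axis) for each of the 34 tested members at day 9 (left) and day 11 (right); bars are 1 standard error, filled points were called and open points were not. At day 9 SLC2A1, PFKFB3, HK2, ANKRD37 and ADM lie furthest to the left and NDRG1 furthest to the right, and at day 11 SLC2A1 is at −1.09 and EGLN3 at 0.86.

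The difference between the arms' steps was tested as an interaction. For the step to day 7, 4 members had a higher change in PIP (beside 6.14% of all genes) and 4 a lower one (beside 5.57%). Scaling over all probes made this 9 and 0, and scaling over detected probes 2 and 4. For the step to day 9 none was higher by limma (beside 3.85%, and 1 at an unadjusted p under 0.05) and 6 were lower (17.6%, beside 2.56%), namely SLC2A1, HK2, DDIT4, PFKFB3, ADM and ALDOA. For the step to day 11, 7 were higher (20.6%, beside 4.59%) and 1 lower (beside 3.51%), with EGLN3 (1.08), HK2 (0.99) and PFKFB3 (0.96) at the top and NDRG1 at −0.66, while scaling over all probes gave 20 higher and 0 lower. The day 9 and day 11 steps share the day 9 arrays, so a gene high at day 9 in NSB enters both with opposite signs.

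Genes that set HIF activity were read beside the members. HIF1A, the widely expressed alpha subunit, had group means between 8.95 at NSB day 11 and 9.41 at day 1. EPAS1, the alpha subunit known as HIF2A, parted the arms: at day 9 it averaged 8.44 ± 0.08 in PIP and 6.01 ± 0.22 in NSB, and at day 11 8.75 ± 0.17 in PIP and 5.35 ± 0.10 in NSB (SD, n = 3 each). The log2 differences were 2.43 at day 9 and 3.40 at day 11 (SE 0.10 each, adjusted p = 4.20e-17 and 3.86e-20). At day 9, 13 members were lower and 3 higher in PIP, and at day 11, 6 were lower and 3 higher. A link between EPAS1 and the levels of the members was not tested. ARNT, the shared beta subunit, was lower at day 9 than at day 7 by −1.49 in PIP and −1.23 in NSB (SE 0.16 each), and its probe was detected on 1 of the 3 PIP and 2 of the 3 NSB arrays of day 9.

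Of 21 further hypoxia targets outside the set, 6 were higher and 3 lower at day 9 against day 7 in PIP (median 0.05), and 6 higher and 4 lower in NSB (median −0.08). The shares higher are near the 22.5% and 23.0% of all genes. ANGPTL4, an inhibitor of lipoprotein lipase, rose by 1.07 in PIP and 1.02 in NSB (SE 0.08 each). BHLHE40, a repressor of the circadian clock, was not detected at day 7 and was at least 2.48-fold higher at day 9 in PIP and at least 1.76-fold higher in NSB, each against the lowest detected signal. Between the arms at day 9, PIP had 5 of the 21 above NSB and 1 below (median 0.02, beside 10.3% and 10.5% of all genes), with PLOD2, a collagen lysyl hydroxylase, at 0.74 (SE 0.10). Of 12 other isozymes and carriers of glycolysis, 2 were higher and 2 lower at day 9 in each arm, beside 22.5% higher and 23.9% lower of all genes in PIP and 23.0% and 24.7% in NSB. ENO3, the muscle enolase, was higher at day 11 than at day 3 by 2.51 in PIP and 2.91 in NSB (SE 0.12 each), and the glucose carrier SLC2A12 fell by 1.72 in PIP and by 1.36 in NSB at day 9 (SE 0.09 each). PDP1, the phosphatase that reopens pyruvate dehydrogenase, was lower in PIP than in NSB by −0.94 at day 9 and −1.04 at day 11 (SE 0.10 each).

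Of the members not yet described, GPI, the phosphoglucose isomerase, spanned 0.64 log2 units between day 1 and PIP day 9. PFKL, the liver-type phosphofructokinase, spanned 0.78 units, with its highest mean at day 3 and its lowest at NSB day 9. ALDOA spanned 0.55 units between NSB day 5 and NSB day 7, and ENO1 0.62 units between day 1 and NSB day 11. BNIP3 spanned 1.53 units, lowest at day 1 and highest at PIP day 5.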

How the data were processed

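Bead-array intensities of 30 arrays were analysed, 3 for each of 10 groups. The authors deposited unnormalised mean bead intensities and a detection p-value per probe, with bead numbers, per the file headers; GenomeStudio is named without a version in the submitters' processing notes. A second deposited table holds processed intensities on a linear scale, whose normalization is not given in the sources used here. The design text names a later bead array than the probe identifiers and annotation do, and the annotation was used.

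Signals were corrected by normexp with the detection p-values (offset 16), scaled by quantiles and log2-transformed with neqc (limma 3.58.1, R 4.3.3). Of 48701 probes, 23687 carried 1 gene name, 35 several and 24979 none. Probes detected (p below 0.05) on at least 3 arrays were kept, and each gene was read by its brightest probe, which left 13488 genes. One model of 10 group means was fitted to all arrays with limma's lmFit and eBayes (20 residual degrees of freedom), with Benjamini-Hochberg adjustment within each comparison and calls at 0.05. It was tested on simulated data.

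The members and lists were chosen with earlier results of these data known. All 38 members were accounted for; values on every array are given for those with the largest or next largest called rise or fall in a comparison and for a fixed set of core genes, and no more than 3 genes of a companion list are named per comparison. The alternatives were 2 median scalings, an offset of 50, the deposited processed values, other filters, the mean of a gene's probes, the replicate number as a block, the compared groups alone and each array left out. Replicate numbers did not pair the samples: residuals of same-numbered arrays correlated at −0.00907 on average and others at 0.00477. The number of arrays limits the precision. No 2 arrays held identical values.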

Additional observations from a re-analysis of the deposited data

Results flagged for a closer look

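The step of a gene in PIP cultures differed from its step in NSB cultures, by limma's interaction term, in 22 results. For the step to day 9 SLC2A1 rose less in PIP (2.52) than in NSB (3.58), a difference of −1.05 (adjusted p = 6.90e-05). HK2 likewise had 0.92 in PIP and 1.87 in NSB (−0.94, adjusted p = 1.89e-04), DDIT4 0.91 and 1.66 (−0.75, adjusted p = 0.00252), PFKFB3 0.84 and 1.56 (−0.73, adjusted p = 0.0482) and ADM 1.88 and 2.50 (−0.62, adjusted p = 0.0268). ALDOA differed by −0.43 (adjusted p = 0.0319). The calls of PFKFB3, ADM and ALDOA at this step were lost under 11, 8 and 10 of 21 alternatives, and those of SLC2A1, HK2 and DDIT4 under none of them.

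For the step to day 11 the fall of HK2 was smaller in PIP (−1.07) than in NSB (−2.07), a difference of 0.99 (adjusted p = 1.22e-04). EGLN3 differed by 1.08 (adjusted p = 5.09e-06), PFKFB3 by 0.96, PFKFB4 by 0.82, DDIT4 by 0.74, PDK1 by 0.71, BNIP3 by 0.46 and NDRG1 by −0.66. PDK1 and BNIP3 were lost under 8 of 21 alternatives each, and the probe of PDK1 was not detected on any array of NSB day 11.

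For the step to day 7 ADM differed by −0.71, KDM3A by −0.60, EGLN3 by −0.57, P4HA1 by −0.47, DDIT4 by 0.54, PFKP by 0.52, ALDOA by 0.46 and SLC2A3 by 0.36. The call of P4HA1, at an adjusted p of 0.0487 by limma, was lost under 16 of 21 alternatives.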

How the results depend on the processing

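Of 298 called results of single genes, 188 kept their call and direction under every alternative run and 110 lost or turned it under at least 1. The alternatives cover scaling, filter, probe choice, the fitted groups and single arrays; the slide as a block was not run because the headers give no slide. With 3 arrays a group and 1 cell line, differences near 0.2 log2 units lie at the edge of what was called. Members detected on few arrays, such as PDK1, are limited by signal over background.

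Median scaling over all probes turned the sign of KDM3A at day 3 against day 1 (0.02), of HK1 (−0.10), PFKFB2 (−0.13) and PDK3 (−0.11) at NSB day 11 against day 9, of PGK1 (−0.38), LDHA (−0.06) and BNIP3 (−0.16) at NSB day 11 against day 3, of PGK1 (−0.10), LDHB (−0.11) and DDIT4 (−0.01) at PIP day 11 against day 3 and of ENO2 (0.09) and PFKFB2 (0.11) between the arms at day 11. Scaling over detected probes turned GAPDH (0.11) and ENO1 (0.02) at NSB day 7 against day 5. The cause was not tested. Scaling over all probes gave 2 members called between the arms at day 5 (6 in the fit reported), 15 at day 11 (9) and 20 for the step from day 9 to day 11 (8), and scaling over detected probes gave 1 between the arms at day 7 (3). Fitting the compared groups alone, with fewer arrays, gave 1 at day 7, 5 at day 11 and 3 for the step from day 7 to day 9 (6).

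Leaving out single arrays gave 1 to 5 members called between the arms at day 5, 2 to 8 at day 7 and 5 to 7 at day 11, 5 to 11 for the step from day 5 to day 7 (8) and 3 to 8 for the step from day 7 to day 9. The step to day 9 had 3 without NSB day 9 replicate 3 or PIP day 9 replicate 1, and the step to day 7 had 5 without NSB day 5 replicate 1, PIP day 5 replicate 3 or NSB day 7 replicate 3. The enzymes' median lay below that of the targets in 10 or 11 of the same 15 comparisons under every alternative, and these comparisons share arrays. With a replicate block the count between the arms at day 5 was 4 and 9 calls of single genes were lost, among them P4HA1 for the step to day 7 (−0.47), and all counts stayed within 1.5 times.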
